A study of Mus musculus with 2 samples.

Results

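Mitochondrial ribosomal protein genes were examined on 2 Affymetrix arrays, 1 of circKcnt2 knockout cells and 1 of WT cells. The genes were chosen by platform symbol, as all symbols that start with Mrpl or Mrps and a digit, a rule that uses no measured value, although these genes were taken up with earlier results of the same arrays known. This gave 76 of 19505 named genes, 48 of the large subunit (Mrpl) and 28 of the small subunit (Mrps), each measured by a single probe set. Per the labels, the cells were group 3 innate lymphoid cells (ILC3s), cytokine-producing lymphocytes without rearranged antigen receptors, gated on the absence of lineage markers with high CD90 and low CD45. They came from circKcnt2-deficient mice and from WT littermates, and all mice received dextran sodium sulfate to damage the colon. The knockout line lacks intron sequences of Kcnt2 that are needed to form the circular RNA circKcnt2, and per the methods the strains were on a C57BL/6 background and treated as young adults. Whether these mice also lacked Rag1, as others of the study did, is not stated for them, nor is the number of mice behind each array.

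The mitochondrial ribosome is a separate ribosome inside the organelle, descended from that of bacteria. It makes only the few proteins still encoded by mitochondrial DNA, all of them core subunits of the respiratory chain and of ATP synthase. Its rRNAs are mitochondrial, but all of its proteins are encoded in the nucleus, made in the cytosol and imported. Some of the proteins have a bacterial counterpart and others were added during the evolution of mitochondria. Proliferating and activated lymphocytes are known to expand this machinery.

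With 1 array per genotype, the differences have no replicate check and no p-value can be given. All levels are the authors' log2 values, and differences are circKcnt2 knockout minus WT. A gene was taken as above background if it reached 2.73, a level set with olfactory and vomeronasal receptor genes, on at least 1 array, which held for 12504 genes. Il17a, the gene of a cytokine typical of ILC3s, was at 11.48 on the knockout array and 4.38 on the WT array, and Kcnt2 was at 1.45 on both, below background, so it gave no check of the labels. All 7 T cell markers were above background on both arrays, with levels from 8.06 to 10.16 on the knockout array and from 8.09 to 9.98 on the WT array, although the sort excluded lineage-positive cells. Of 6 ILC3 markers, Il7r and Id2 were far above background (7.70 and 8.39 on the knockout array, 7.86 and 8.40 on the WT array), whereas Il23r and Ccr6 were below it on both. Of 5 epithelial markers, Krt8, Krt18 and Krt20 were below background on both arrays, whereas Cdh1 (4.48 on the knockout array and 4.50 on the WT array) and Epcam (a difference of 0.18) were above it. Some markers of other cells differed between the arrays. Jchain, of plasma cells, was at 4.30 on the knockout array and 6.72 on the WT array, and the B cell gene Cd79b at 4.87 and 3.91. Of 4 macrophage and monocyte markers, only Itgam was higher, at 3.39 on the knockout array and below background on the WT array, at least 1.58-fold higher. Adgre1 was below background on the knockout array and at 3.05 on the WT array, and Csf1r (-0.18) and Lyz2 (-0.08) were also lower. Their part in the members' differences was not tested. The cells are called ILC3s after the labels and not after their markers. In such bulk RNA a different mix of cells and a different amount of RNA per cell cannot be told apart.

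Known regulators of nuclear genes for mitochondrial proteins are NRF1, the ETS factor GABP and YY1, and their motifs were looked for in the promoters of the members. RefSeq promoter windows (build GRCm38.p6, 250 bases before to 50 after each gene's start) were matched for 67 of the 76 members, in 73 windows. The motifs were GCGCA and GCGC with any base between them (NRF1), CCGGAAG (ETS), AANATGGC (YY1), CACGTG (E-box, the site of MYC and MAX) and GGGCGG (GC box), searched on both strands, where N is any base. YY1 matches were found in 28.8% of member windows, compared with 7.67% of windows of genes above background and 6.05% of all 32851 windows. ETS matches were found in 34.2%, 16.1% and 8.86% of these windows and NRF1 matches in 17.8%, 9.15% and 4.60%. At least 1 of these 3 motifs stood in 63.0% of member windows, 28.6% of windows of genes above background and 17.4% of all windows. E-boxes (9.59%, 9.46% and 7.15%) and GC boxes (52.1%, 58.4% and 35.7%) were about as frequent in member windows as in those of genes above background, or less so. Median GC content was 58.3% in member windows and 60.0% in those of genes above background. The centres of the members' YY1 matches had a median of 17.5 bases downstream of the start, with the middle 50% from -90.25 to 24 bases relative to it. These matches describe letters in a window and not bound sites.

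**Figure D1:**
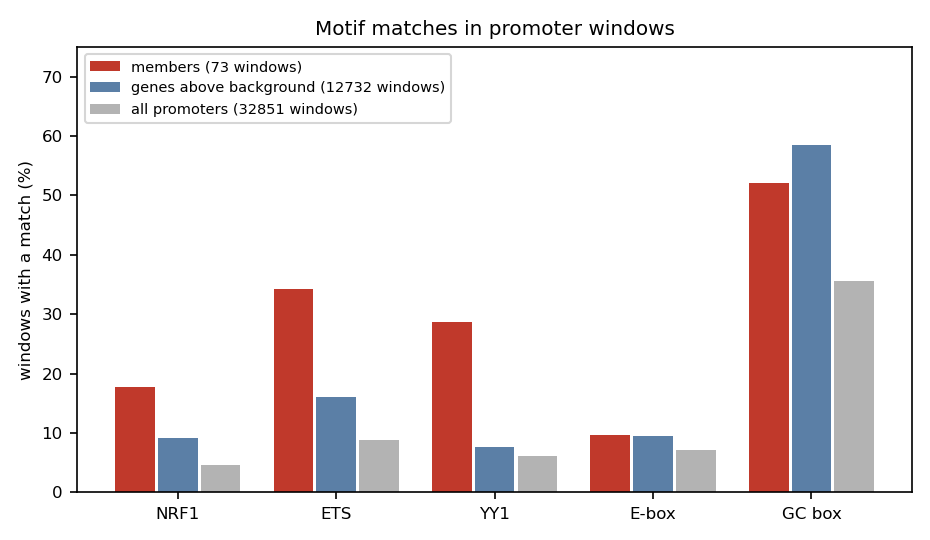
Percent of promoter windows with at least 1 match to each motif (vertical axis), for the 73 windows of mitochondrial ribosomal protein genes, the 12732 windows of genes above background and all 32851 windows. YY1 stood in 28.8% of member windows against 7.67% of windows of genes above background, whereas the E-box stood in 9.59% and 9.46%.

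The windows of the 2 highest and the 2 lowest members with a window are shown to set them against each other, with matches to any of the 5 motifs in capitals. Mrps10 (chr17:47368947-47369246, plus strand) had no match. Mrpl11 (chr19:4962056-4962355, plus strand) had a YY1 match 20 bases downstream of its start. Mrps23 (chr11:88204138-88204437, plus strand) had an ETS match on the opposite strand, and Mrpl40 (chr16:18876588-18876887, minus strand) had 2 GC boxes.
Mrps10: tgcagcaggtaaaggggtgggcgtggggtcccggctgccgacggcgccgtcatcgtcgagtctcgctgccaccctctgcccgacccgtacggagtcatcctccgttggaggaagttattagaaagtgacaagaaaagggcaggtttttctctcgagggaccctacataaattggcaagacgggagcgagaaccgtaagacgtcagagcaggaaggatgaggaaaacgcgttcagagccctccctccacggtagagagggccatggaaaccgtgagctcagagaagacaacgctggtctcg
Mrpl11: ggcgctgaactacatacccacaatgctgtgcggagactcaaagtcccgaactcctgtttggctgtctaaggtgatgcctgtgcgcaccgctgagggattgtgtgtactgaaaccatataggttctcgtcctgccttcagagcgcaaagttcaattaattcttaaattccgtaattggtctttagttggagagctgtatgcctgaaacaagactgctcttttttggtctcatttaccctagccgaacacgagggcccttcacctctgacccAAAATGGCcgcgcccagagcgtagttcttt
Mrps23: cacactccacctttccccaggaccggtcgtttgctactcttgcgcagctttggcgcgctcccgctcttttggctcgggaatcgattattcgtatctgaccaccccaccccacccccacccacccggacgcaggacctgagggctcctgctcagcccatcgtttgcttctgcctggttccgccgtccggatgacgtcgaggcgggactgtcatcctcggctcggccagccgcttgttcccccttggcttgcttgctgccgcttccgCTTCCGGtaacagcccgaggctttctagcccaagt
Mrpl40: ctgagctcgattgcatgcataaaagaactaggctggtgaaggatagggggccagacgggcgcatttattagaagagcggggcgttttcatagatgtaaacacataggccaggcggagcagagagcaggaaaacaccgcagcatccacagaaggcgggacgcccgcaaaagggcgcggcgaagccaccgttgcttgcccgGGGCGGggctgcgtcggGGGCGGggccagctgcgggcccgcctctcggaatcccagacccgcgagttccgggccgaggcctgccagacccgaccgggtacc

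A further 3 windows, chosen after the matches were seen, show how the motifs are arranged in members that hold several. Mrpl45 (chr11:97315466-97315765, plus strand) held 3 NRF1 matches, the most of any member. Mrps21 (chr3:95871465-95871764, minus strand) held an NRF1 match upstream of its start and an ETS match 18 bases downstream of it. Mrpl47 (chr3:32736706-32737005, minus strand) held 3 YY1 matches, the last of them 13 bases downstream of the start.
Mrpl45: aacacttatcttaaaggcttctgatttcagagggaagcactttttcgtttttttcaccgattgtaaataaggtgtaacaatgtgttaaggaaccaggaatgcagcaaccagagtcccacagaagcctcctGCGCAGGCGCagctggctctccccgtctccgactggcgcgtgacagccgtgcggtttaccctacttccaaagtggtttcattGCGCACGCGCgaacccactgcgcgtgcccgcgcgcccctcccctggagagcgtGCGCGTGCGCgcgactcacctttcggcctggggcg
Mrps21: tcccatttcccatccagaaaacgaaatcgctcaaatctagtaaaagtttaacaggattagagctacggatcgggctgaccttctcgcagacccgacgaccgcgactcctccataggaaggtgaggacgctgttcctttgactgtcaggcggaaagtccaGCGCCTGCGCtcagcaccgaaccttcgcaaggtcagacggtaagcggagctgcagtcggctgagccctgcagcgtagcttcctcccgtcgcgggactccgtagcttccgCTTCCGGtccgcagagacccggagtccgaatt
Mrpl47: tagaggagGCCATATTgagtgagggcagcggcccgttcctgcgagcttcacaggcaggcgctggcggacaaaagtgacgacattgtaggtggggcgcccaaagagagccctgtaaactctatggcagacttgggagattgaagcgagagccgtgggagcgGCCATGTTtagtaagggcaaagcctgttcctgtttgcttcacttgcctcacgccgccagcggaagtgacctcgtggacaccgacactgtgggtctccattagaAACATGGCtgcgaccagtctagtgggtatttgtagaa

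The comparison of the arrays asked how the members differed between circKcnt2 knockout and WT ILC3s from dextran sodium sulfate-treated mice. Most members were slightly higher on the knockout array. Of the 76 members, all above background on both arrays, 59 were higher (77.6%, beside 56.4% of all genes above background) and 17 lower, and 52 lay above the median difference of all genes above background. At a threshold of 1.5-fold, 11 members were higher and none was lower, which is 14.5% of the members. The background over all 12504 genes above the floor was 7.66% past this threshold on the higher side and 5.21% on the lower side. The median difference of the members was 0.23, a 1.17-fold difference, with the middle 50% between 0.018 and 0.47. Over all genes above background it was 0.06, with the middle 50% from -0.20 to 0.30. Of the members, 13 lay in the highest 10% of all differences and none in the lowest 10%. The lowest member difference was -0.32, whereas differences of all genes reached -4.01.

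**Figure D2:**
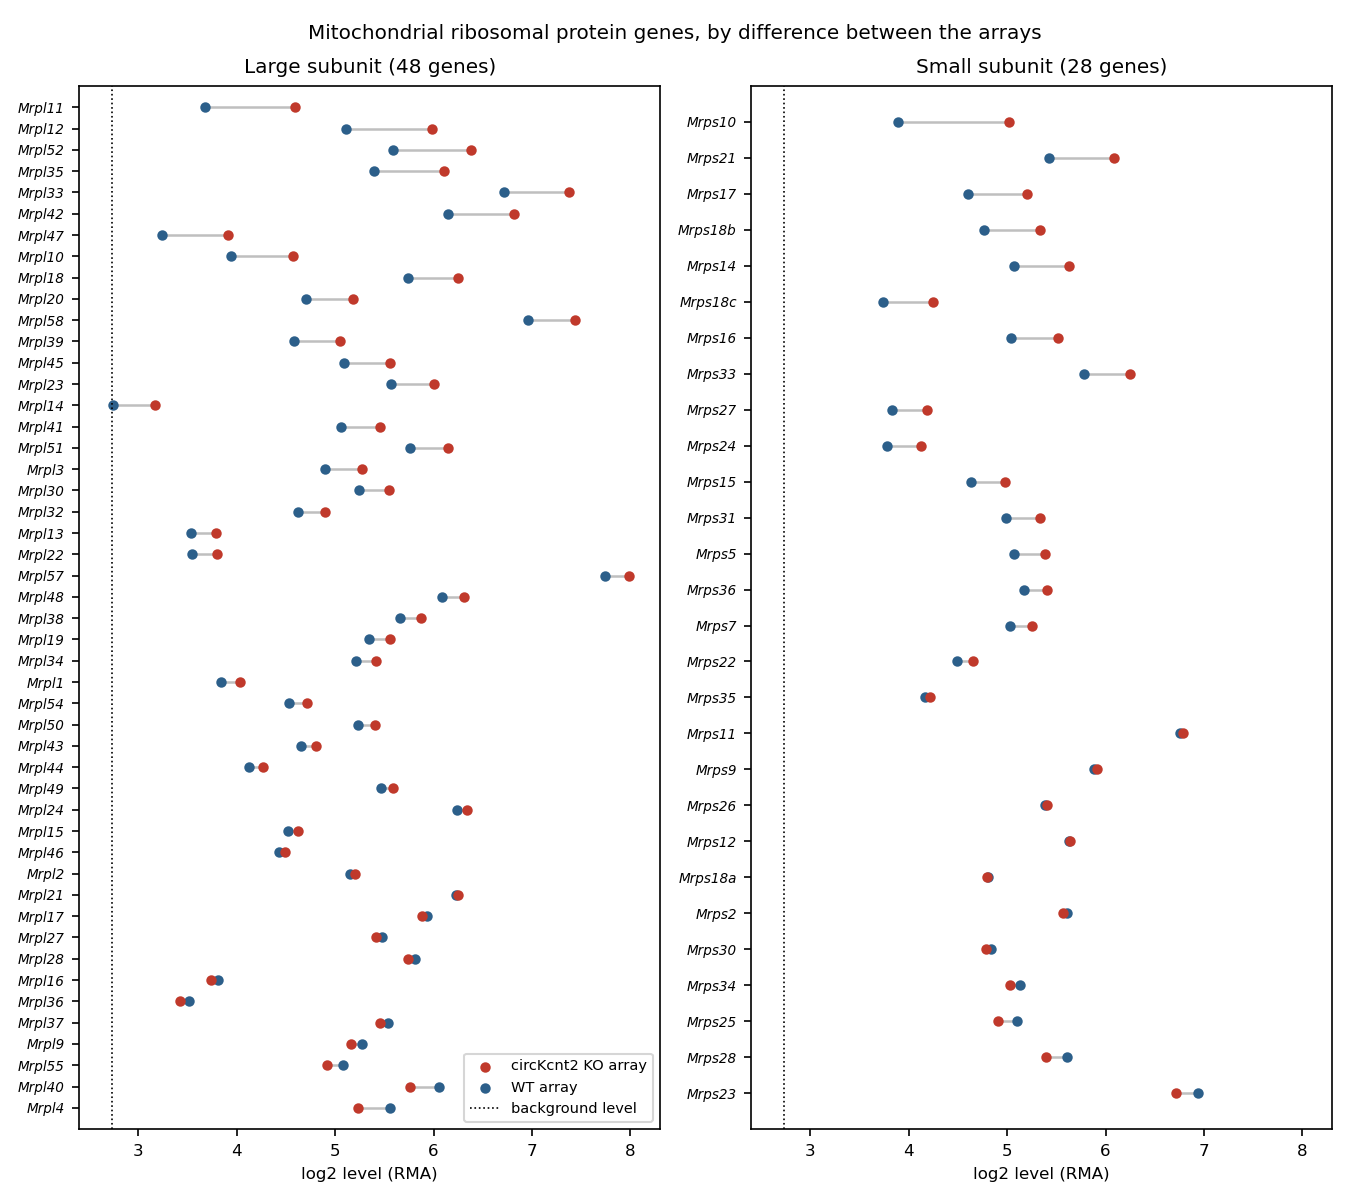
Log2 level of each of the 48 large subunit (left) and 28 small subunit members (right), sorted by difference, with a red point for the circKcnt2 knockout array, a blue point for the WT array and a dotted line at the background level of 2.73. The red point lies right of the blue one for 38 large and 21 small subunit members, and the gap is widest for Mrps10 (1.12).

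The subunits had the same median difference, 0.23 each. Of 48 large subunit members, 38 were higher and 10 lower, and 8 reached 1.5-fold. Of 28 small subunit members, 21 were higher and 7 lower, and 3 reached 1.5-fold. The shares past 1.5-fold were 16.7% (large) and 10.7% (small), beside 7.66% of all genes above background. Levels in the large subunit ran from 3.17 to 7.98 on the knockout array and from 2.74 to 7.74 on the WT array. Small subunit levels ran from 4.13 to 6.79 on the knockout array and from 3.73 to 6.94 on the WT array. Each gene is read by its own probes, so levels of different genes cannot be compared.

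The difference between the arrays varied with level over all genes. Genes were split into 4 equal groups by mean level, and the median difference was -0.16 in the lowest group, then 0.0062, 0.12 and 0.14. Most members lay in the upper part of this range, with 44 in the group below the highest and 13 in the highest. With this trend subtracted by loess, the median difference was 0.13 for the large and 0.11 for the small subunit. Then 51 of the 76 members were above 0, beside 6228 of the 12504 genes above background. Of the 11 members past 1.5-fold, 6 remained so, and Mrpl14 (0.60) newly passed it. This left 6 of 48 large and 1 of 28 small subunit members at least 1.5-fold higher, beside 7.04% of all genes. Robust SDs of differences among genes of like level ran from 0.20 to 0.43, and 6 members (7.89%) lay more than 2 such SDs above the trend and none as far below it, beside 4.13% and 1.92% of all genes above background. Among the members themselves difference and mean level were almost unrelated (Pearson's r -0.06 and Spearman's rho -0.04 over 76 genes, which share the same 2 arrays).

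**Figure D3:**
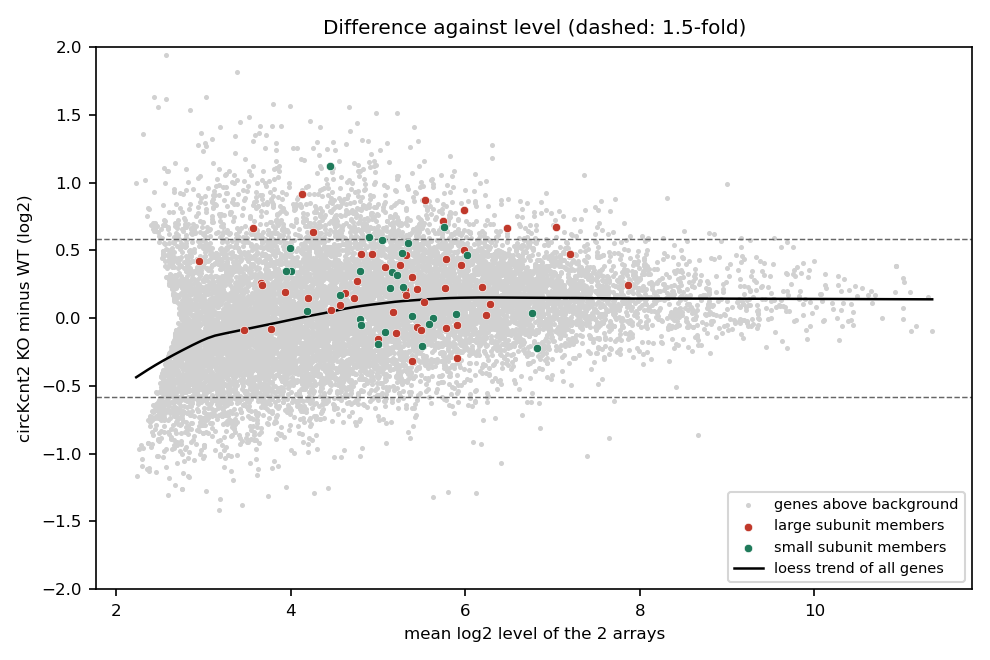
Difference in log2 level (circKcnt2 knockout minus WT) against the mean log2 level of the 2 arrays, for genes above background (grey), large subunit members (red) and small subunit members (green), with the loess trend of all genes (black) and dashed lines at 1.5-fold; genes beyond a difference of 2 are not drawn. The 11 members above the upper dashed line have no counterpart below the lower one.

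Genes of the stalk of the large subunit, which recruits the GTPase translation factors, were among the highest members. Mrpl11, at the base of the stalk, was at 4.59 on the knockout array and 3.67 on the WT array, a 1.88-fold difference and the highest of the large subunit. Mrpl12, the stalk protein itself, which also binds the mitochondrial RNA polymerase, was at 5.98 on the knockout array and 5.11 on the WT array, a 1.83-fold difference. Mrpl10, which anchors Mrpl12, was at 4.57 on the knockout array and 3.94 on the WT array, a 1.55-fold difference. These 3 were thus each past 1.5-fold. Mrpl54, another protein of this region, was at 4.72 and 4.53, a difference of 0.18. The stalk, the tunnel exit, the central protuberance and the small subunit head were picked out as groups after the values were seen.

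A further 5 large subunit members were past 1.5-fold. Mrpl52, a protein without a bacterial homolog, was at 6.38 on the knockout array and 5.59 on the WT array (1.73-fold). Mrpl35, a homolog of bacterial L35, was at 6.11 on the knockout array and 5.39 on the WT array (1.64-fold). The corresponding levels of Mrpl33 were 7.38 and 6.71 (1.59-fold), those of Mrpl42 were 6.81 and 6.15 (1.59-fold) and those of Mrpl47 were 3.90 and 3.24 (1.58-fold). Mrpl47 belongs to the rim of the tunnel through which the new peptide leaves. Of 6 members at this exit, Mrpl47 alone was past 1.5-fold, and Mrpl45, which holds the ribosome to the inner membrane, was at 5.55 on the knockout array and 5.09 on the WT array (1.38-fold). The median of these 6 was 0.34.

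At the other end of the large subunit, Mrpl4, a protein that lines the peptide tunnel, was the lowest member, at 5.23 on the knockout array and 5.55 on the WT array, a difference of -0.32. Mrpl40, a protein of the central protuberance, was at 5.76 on the knockout array and 6.05 on the WT array (1.23-fold lower). Mrpl55 (4.92 on the knockout array and 5.08 on the WT array) and Mrpl9 (5.16 and 5.27) followed. Mrpl37 and Mrpl36 were each less than 0.1 below their WT level, at differences of -0.09 and -0.08. The central protuberance is where the subunits contact each other and the tRNAs. Of the 7 members counted to it, 4 were higher, with a median of 0.06. The highest of these 7 was Mrpl18, at 6.24 on the knockout array and 5.74 on the WT array (1.42-fold). The 7 are not a full list of this region, and Mrpl58 (0.47), for example, was not counted.

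In the small subunit, Mrps10 had the highest difference of all members. Mrps10, a protein of the head of the small subunit, was at 5.02 on the knockout array and 3.89 on the WT array, a 2.18-fold difference, and the only member past 2-fold. Past 2-fold lay 1.11% of all genes above background on the higher side and 0.512% on the lower side, where no member lay. It ranked above 99.4% of genes above background by difference. Mrps21 was at 6.09 on the knockout array and 5.42 on the WT array (1.59-fold) and Mrps17 at 5.20 on the knockout array and 4.60 on the WT array (1.51-fold). Mrps17 lay just inside the threshold (0.60) and Mrps18b just outside it (0.57). Mrps14, also of the head, was at 5.62 on the knockout array and 5.07 on the WT array (1.47-fold). Mrps16, variants of which cause mitochondrial disease in humans, was at 5.52 on the knockout array and 5.04 on the WT array (1.39-fold), and Mrps33 was at 6.25 and 5.78 (1.38-fold). All 8 members counted to the head were higher, with a median of 0.35, although Mrps9 (0.03) and Mrps35 (0.05) differed little, and Mrps9 lay below the loess trend (-0.12). Ribosomal proteins without an Mrp symbol, such as Dap3 (0.12) and Ptcd3 (0.08), were not counted in this group.

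The lowest members of the small subunit were Mrps23, at 6.72 on the knockout array and 6.94 on the WT array (1.17-fold lower), Mrps28, a relative of bacterial S1, at 5.40 and 5.61 (1.16-fold lower), and Mrps25, at 4.91 and 5.10 (1.14-fold lower). Mrps34, which is needed for a stable small subunit, was at 5.03 on the knockout array and 5.13 on the WT array. Mrps30 (4.78 on the knockout array and 4.83 on the WT array) and Mrps2 (5.57 and 5.61) were close to equal. Mrps12, which shapes the decoding centre, was at 5.63 on both arrays. Mrps22, another gene of human mitochondrial disease, differed by 0.17.

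The 3 paralogs of bacterial S18 did not have like values. Mrps18b was at 5.33 on the knockout array and 4.76 on the WT array (1.49-fold) and Mrps18c at 4.25 on the knockout array and 3.73 on the WT array (1.43-fold). Mrps18a was at 4.80 on both arrays. Despite its name Mrps18a is built into the large subunit, as is Mrps30, and these were the 2 members labelled small that structures place in the large subunit. Mrps36, at 5.40 on the knockout array and 5.17 on the WT array, is now regarded as part of the 2-oxoglutarate dehydrogenase complex. With Mrps18a and Mrps30 counted as large and Mrps36 left out, the median was 0.22 for 50 large and 0.32 for 25 small subunit members. Whether the probes separate the S18 paralogs was not examined.

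Members with and without a bacterial homolog were set side by side. In the small subunit, 17 members with a homolog had a median of 0.35, with 3 past 1.5-fold, and 11 without had a median of 0.05, with none past it. In the large subunit the medians were 0.23 for 30 members with a homolog and 0.23 for 18 without, with 6 and 2 past 1.5-fold. Over all genes above background the median was 0.06, and 7.66% were at least 1.5-fold higher. Whether the subunits differ in this split could not be tested.

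Other members were named for their roles. Mrpl3, which lies near the peptidyl transferase centre, was at 5.27 on the knockout array and 4.90 on the WT array, a difference of 0.37. Mrpl44, with a fold like that of RNase III and linked like Mrpl3 to cardiomyopathy in humans, was at 4.27 and 4.12, a difference of 0.15. Mrpl58, a peptidyl-tRNA hydrolase that frees stalled ribosomes, was at 7.43 on the knockout array and 6.96 on the WT array (1.39-fold). Mrpl14 was the member closest to background, at 3.17 on the knockout array and 2.74 on the WT array. In all, 46 of the 76 members (60.5%) had a higher level less than 25% above the lower one, about the share of all genes above background (61.0%). Mrpl57 was at 7.98 on the knockout array and 7.74 on the WT array, and Mrps11 at 6.79 and 6.75. Of proteins of the mitochondrial ribosome that carry no Mrp symbol, Chchd1 (0.41), Gadd45gip1 (0.29), Dap3 (0.12) and Ptcd3 (0.08) were all higher, none by 1.5-fold.

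The members' differences were also set against their promoters. The 13 members with an NRF1 match had a median difference of 0.28 and the 54 without 0.24. For ETS the medians were 0.25 (25 members) and 0.25 (42 members), and for YY1 0.22 (21 members) and 0.28 (46 members). Of the 11 members past 1.5-fold, 2 had an NRF1, 3 an ETS and 4 a YY1 match. The 5 members with an E-box had a median of 0.05, with none past 1.5-fold. With a GC box, 2 of 33 members were past 1.5-fold, with a median of 0.23. Without it 9 of 34 were, with a median of 0.32. For comparison, 7.66% of the whole set of 12504 genes passed 1.5-fold on the higher side, a share not split by motif here. Whether any of the 5 motifs had a part in the members' differences was not tested. Of the regulators, Yy1 (7.76 on both arrays) and Nrf1 (6.56 on the knockout array and 6.52 on the WT array) differed by less than 0.05, Gabpa by 0.15 and Gabpb1 by 0.24. Myc was at 7.77 on the knockout array and 6.97 on the WT array, a 1.74-fold difference.

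Many members share their promoter region with a neighbour on the opposite strand. A start on the other strand, facing away and within 1000 bases, was found for 26 of 67 members (38.8%), compared with 18.1% of genes above background and 12.3% of all genes with a window. The median distance between the starts was 129.5 bases. Mrpl46 and Mrps11 form such a pair with each other, with starts 42 bases apart, and both differed little (0.06 and 0.04). Mrpl47 is paired with Ndufb5, a complex I subunit gene (6.04 on the knockout array and 5.67 on the WT array), and Mrpl18 with Tcp1, a chaperonin subunit gene (6.24 and 5.69). Mrps12 is paired with Sars2, the mitochondrial seryl-tRNA synthetase gene (5.50 and 5.36). Of 23 partners above background, 16 were higher and 4 differed by 1.5-fold or more in that direction. Of these 4, 3 (Ska3, Zfp189 and Zfp661) were below background on the WT array. Over all genes above background, 56.4% were higher and 7.66% were at least 1.5-fold higher. The lowest partner, Klc4 next to Mrpl2, was at 3.41 on the knockout array and 4.03 on the WT array. Partner and member had the same sign in 15 of the 23, with the Mrpl46 and Mrps11 pair counted from both sides. Such a count was not made for other pairs of genes, so whether neighbours differ alike was not tested.

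Genes that act with the mitochondrial ribosome were compared to show where the members stood. Beside each list, 56.4% of all genes above background were higher and 7.66% were at least 1.5-fold higher. Of 14 mitochondrial translation factors above background, 13 were higher, with a median of 0.52, and 6 reached 1.5-fold. The highest were Guf1, an elongation GTPase (4.21 on the knockout array and 3.21 on the WT array, a difference of 1.00), the initiation factors Mtif3 (1.77-fold) and Mtif2 (1.75-fold), and Gfm2, which splits the ribosome after termination (1.74-fold). Tufm, the elongation factor that brings tRNAs, was at 4.91 on the knockout array and 4.58 on the WT array. The members' median of 0.23 was below this value, and the difference between the lists could not be tested. Of 24 assembly and rRNA modification genes, 19 were higher, 2 of them past 1.5-fold (8.33%, near the share of all genes), with a median of 0.20. Fastkd2, which binds the large mitochondrial rRNA, was at 3.89 on the knockout array, at least 2.24-fold higher than on the WT array, where it was below background (2.48), and Gtpbp10, a GTPase of large subunit assembly, was at 4.05 on the knockout array and 3.16 on the WT array (1.86-fold).

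Of 19 genes of mitochondrial aminoacyl-tRNA synthesis, 16 were higher, with a median of 0.31. Wars2 (1.57-fold) and Hars2 (1.53-fold) were past 1.5-fold (10.5% of the 19, beside 7.66% of all genes above background). A list of mitochondrial transcription and RNA processing genes also held genes of mitochondrial DNA replication (Polg, Polg2, Twnk and Ssbp1). Its median was 0.20, with 3 of 15 genes at least 1.5-fold higher and 1 lower. Tfb2m, a transcription initiation factor, was at 5.50 on the knockout array and 4.42 on the WT array (2.11-fold), Ssbp1, the single-stranded DNA binding protein, at 7.05 and 6.24 (1.75-fold), and Polg2, the accessory subunit of the DNA polymerase, at 4.19 and 4.86 (1.59-fold lower). Genes of mitochondrial protein import had a median of 0.20, with 3 of 25 past 1.5-fold, Timm10 (1.87-fold), Timm17a (1.55-fold) and Timm8b (5.18 on the knockout array and 4.59 on the WT array). Genes encoded by mitochondrial DNA were looked for by symbol, but none was found among the named genes, so they were not analysed.

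**Figure D4:**
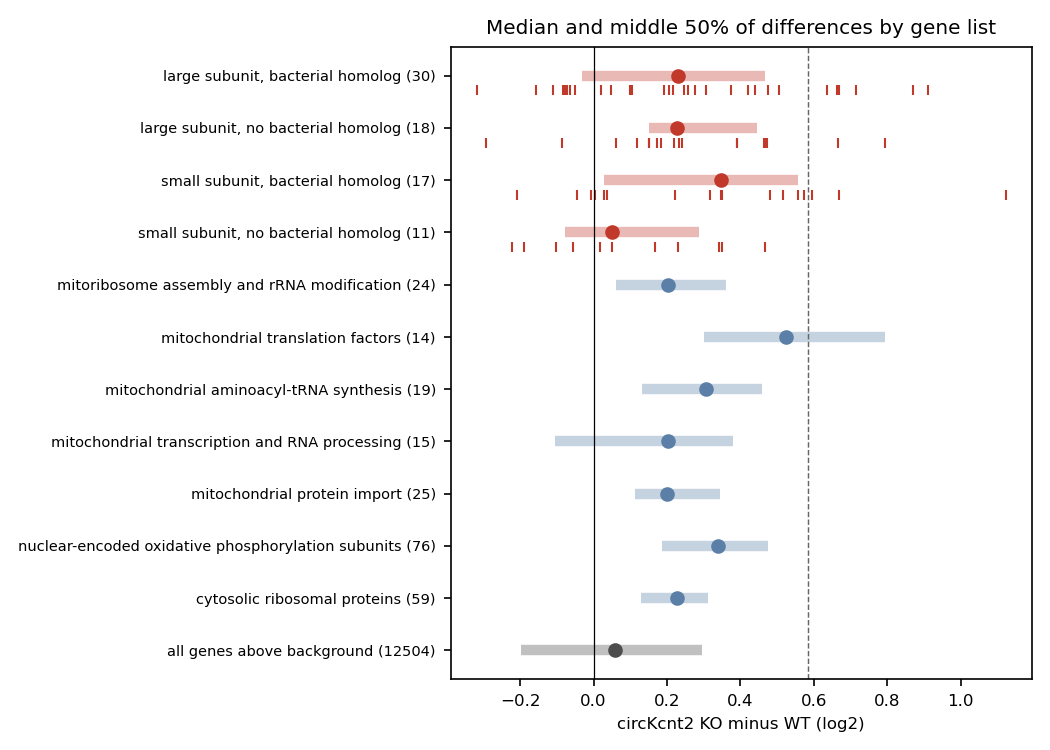
Median (point) and middle 50% (bar) of the difference in log2 level, circKcnt2 knockout minus WT, for mitochondrial ribosomal protein genes by subunit and bacterial homology (red, with a tick for each gene), for related gene lists (blue) and for all genes above background (grey), with the number of genes in brackets and a dashed line at 1.5-fold. The small subunit members without a bacterial homolog (0.05) lie near the median of all genes (0.06), and the translation factors (0.52) highest.

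Cytosolic ribosomal proteins and the nuclear subunits of oxidative phosphorylation are the lists most like the members. The median of 59 cytosolic ribosomal protein genes was 0.23, the same as that of the members, and 2 of them were past 1.5-fold (3.39%). The lists cannot be set against each other directly by such counts, since 55 of the 59 cytosolic genes but 13 of the 76 members lay in the highest of the 4 level groups, where 3.84% of all genes were past 1.5-fold, compared with 9.76% in the group below it. The 76 oxidative phosphorylation subunit genes had a median of 0.34, with 68 higher, 9 of them at least 1.5-fold, and Ndufa4l2 at least 1.92-fold lower, being below background on the knockout array (2.39) and at 3.67 on the WT array. Cell cycle genes also differed between the arrays. Of 28 above background, 26 were higher, with a median of 0.71, and 15 reached 1.5-fold (53.6%, beside 7.66% of all genes above background). Their median levels were 6.19 on the knockout array and 5.71 on the WT array. Mki67, a marker of cycling cells, was at 8.76 on the knockout array and 7.87 on the WT array. Whether the cell cycle genes had a part in the members' differences was not tested.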

How the data were processed

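Gene expression was measured on 1 array per genotype. For each probe set the authors deposited a log2 level from RMA in Affymetrix Power Tools (versions are not given in the sources). RMA evens out the arrays' distributions, so a shift common to all genes can be reduced, although the sorted columns still differed by up to 0.28. Medians over 29129 probe sets were 3.22 (circKcnt2 knockout) and 3.27 (WT). The array model is not settled, because the identifiers are not those of the design named in the notes. Platform annotation gave 19572 probe sets 1 symbol, and probe sets of a gene were averaged (55 genes, no member). Background was the 95th percentile of the higher value of 1412 receptor genes. Control probes matched for GC content reached 5.91, a level that 9 members exceeded on both arrays, so signal over background limits the precision. Differences, counts past 1.5-fold and medians were computed with Python 3.11.15, pandas 2.3.3 and statsmodels 0.14.6 (loess span 0.3) and tested on simulated data. Alternatives were no floor, a stricter floor, loess, quantile normalization, centring, the brightest probe set, addition of 32, values raised to background, structural subunits, other thresholds and means. A value without a test was called moved if a median shifted by over 0.1. The named genes were the 8 highest and 6 lowest of each subunit, the 3 of each with the highest mean level, as a rule for naming only, and members with known roles. A protein comparison planned for the S18 paralogs was not made. Members and lists were chosen with earlier results of these data known, and the structural groups after the values were seen.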

Additional observations from a re-analysis of the deposited data

How the results depend on the processing

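The median difference stayed above 0 in both subunits, and no member was at least 1.5-fold lower, under every setting tried. Quantile normalization lowered the medians to 0.11 (large) and 0.093 (small), with 5 of 48 and 1 of 28 members at least 1.5-fold higher, beside 6.22% of all genes. Loess correction gave medians of 0.13 (large) and 0.11 (small), with 6 of 48 and 1 of 28 such members (all genes 7.04%). Adding 32 before the logarithm, which shrinks differences by construction, gave 0.10 and 0.12, with 0 members past 1.5-fold in either subunit (all genes 0.552%). With the floor raised to the top GC control, chosen after seeing the data, the large subunit median was 0.44 over 15 members, with 5 past 1.5-fold, and 1 of 4 small subunit members was past it (all genes 5.74%). A gene passed this floor on either array, and only 9 members exceeded it on both. Mrpl12 (5.98 on the knockout array and 5.11 on the WT array) passed through the knockout array alone. Mrpl40 (5.76 and 6.05) passed through the WT array alone. Such a filter favours large differences, so the 0.44 is not read as a result about the members. At a 25% difference 18 large and 12 small subunit members were higher (all genes 22.9%), and at 2-fold 0 and 1 (all genes 1.11%). Over 38 named members, 300 of 304 values under an alternative moved by less than the robust SD among genes at that level. The other 4, all after adding 32, moved by more, and no sign was reversed among members past 1.5-fold. No floor, the stricter floor, the brightest probe set and values raised to background could not change these differences. Each member has a single probe set and lay above background on both arrays. Centring moved every value by the same 0.06, below the smallest robust SD of 0.20. The count of 300 therefore does not measure robustness. Mrps11 and Mrps12, close to 0 in the report, turned negative under loess, quantile normalization and centring, to as low as -0.11 and -0.14. No paired analysis was possible because each genotype had 1 array, and no array could be left out.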
